A study of Mus musculus with 10 samples.

Results

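The expression of 40 skeletal muscle genes was followed across 10 mouse tumors, each hybridised to 1 Agilent array against a common reference RNA. The genes were chosen by their role in muscle, not by a rule on their values, but with earlier results of these data known. Each was read from 1 probe, the one with the highest mean red signal where a gene had several. All 40 genes had a probe among the 40196 probes of the table deposited by the authors. They comprised 15 genes shared by fast and slow fibers, 14 fast fiber genes, 9 slow fiber genes and 2 myogenic regulators, Myod1 and Myog.

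The tumors were 5 sarcomatoid (spindle cell) carcinomas, as the study's methods group them, and 5 adenocarcinomas, which keep a glandular form. The sarcomatoid group held mammary tumors 323, 307 and 594 and lung tumors 323 and 307. By label, tumor 594 was a sarcomatoid carcinoma and the others of this group were sarcomatoid adenocarcinomas. The lung tumors were labelled as transplanted. Per the study's methods, cell lines made from the 2 mammary primaries had been injected into the tail vein to give them. The adenocarcinomas were tumors 105, 131, 470, 17 and 85, all from the mammary gland and of genotype Pik3ca H1047R;Trp53 R270H;MMTV-Cre. Of mammary tumors 323 and 307, 1 had that same genotype and 1 was Pik3ca H1047R;MMTV-Cre with a spontaneous Trp53 R245H mutation, and the labels do not say which. Tumor 594 was by elimination the Trp53 R270H;MMTV-Cre tumor. Compound mutants were on a C57BL/6 background, the MMTV promoter directs Cre mainly to mammary epithelium, and ages were not given in the sources used here. Values are log2 ratios of tumor (red channel) over reference (green channel), although the labels name the green dye for the tumor RNA, so that a value of 0 is the level of the reference RNA for that probe.

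Skeletal muscle fibers contract by sliding actin thin filaments past myosin thick filaments, gated by calcium that troponin senses on the thin filament. Fast and slow fibers carry different versions of myosin heavy chain, myosin light chain, troponin and calcium handling proteins, and slow fibers share several of theirs with the heart. Mammary epithelium makes almost none of these proteins, while the mammary fat pads of the mouse lie on or near the body wall and limb muscles.

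Muscle genes were high in 3 of the 10 tumors, the adenocarcinomas 105 and 470 and the sarcomatoid carcinoma 594. The split did not follow the sarcomatoid and adenocarcinoma groups. Within the sarcomatoid group, tumor 594 was also the only one not labelled sarcomatoid adenocarcinoma. The list level, the median log2 ratio over the 40 genes, was 4.25 in tumor 105, 3.21 in tumor 470 and 1.40 in tumor 594. Lung tumors 323 and 307 came next at 0.46 and 0.01, and the level was -0.61 in tumor 131, -0.68 in tumor 307, -0.79 in tumor 17, -0.86 in tumor 323 and -0.86 in tumor 85. Each tumor is 1 array, so neighbours in this order have no replicate spread to be set against. The genes spread widely within a tumor, with an interquartile range from 3.26 to 5.06 in tumor 105, 1.43 to 3.92 in tumor 470, 0.13 to 3.19 in tumor 594 and -2.01 to -0.22 in tumor 85. In this bulk RNA, more muscle cells and more RNA per muscle cell cannot be told apart.

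**Figure D1:**
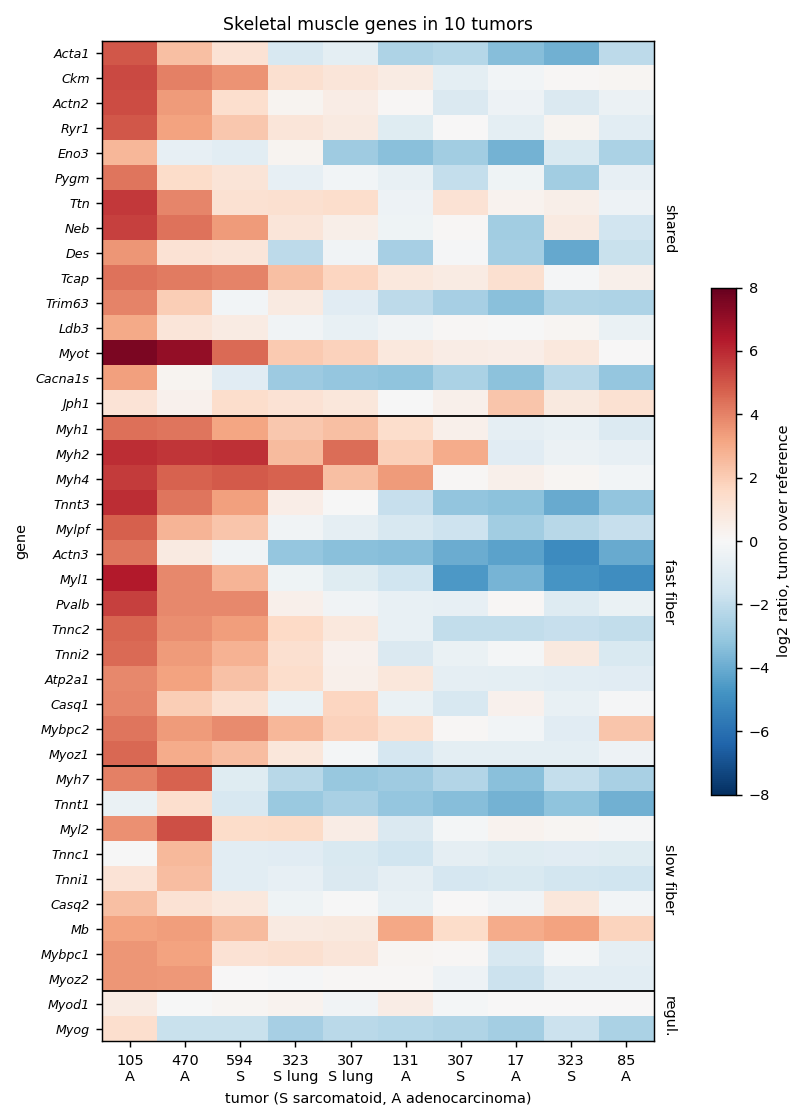
Log2 ratio (colour, tumor over reference) of the 40 genes (rows, grouped by list) in the 10 tumors (columns, ordered by list level; S sarcomatoid, A adenocarcinoma). Tumor 105 is the highest column for 33 of the 40 genes and tumor 470 for 6.

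Tumor 105 had the highest log2 ratio of the 10 tumors for 33 of the 40 genes, and tumor 470 for 6, all slow fiber genes, whereas tumor 105 was highest for 5.87% and tumor 470 for 5.45% of all probes. For the remaining gene, Jph1, tumor 17 was highest. The 3 highest tumors were 105, 470 and 594 for 26 of the 40 genes, against 1.39% of all probes. These tumors were named as the highest from the values of the same 40 genes, which in part fixes the count. They were the 3 highest for 11 of the 15 shared genes, 13 of the 14 fast fiber genes, 2 of the 9 slow fiber genes and neither regulator. The exceptions were Eno3, Ttn, Trim63 and Jph1 among the shared genes, Casq1 among the fast genes, and Myl2, Tnnc1, Tnni1, Casq2, Mb, Mybpc1 and Myoz2 among the slow genes. The median SD over the 10 tumors was 1.96 for the 40 genes and 0.57 for all probes.

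The arrays had been read with 3 versions of the scanner's extraction protocol, called scan batches here. Tumors 105, 470 and 594 were all in batch 2, and so was tumor 307, which had a low level. Tumors 307 and 105 lay on the same slide and tumors 594 and 470 on another. The share of all probes well above background in red was 83.0% in tumor 105, 80.3% in tumor 470 and 77.6% in tumor 594, against 77.2% in tumor 307 and 52.3% to 72.3% in the other 6. All 40 genes were well above background in tumors 105, 470 and 594, against 37 and 34 in lung tumors 323 and 307, 30 in tumor 307, 28 in tumor 323, 25 in tumor 131, 22 in tumor 17 and 11 in tumor 85. The part of scan batch and of depth in these levels was not tested.

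Among the thin filament, filament anchoring and energy genes that both fiber types use, Acta1, the skeletal alpha-actin, stood at 4.996 in tumor 105, 2.42 in tumor 470 and 1.19 in tumor 594, at -1.30 and -0.80 in lung tumors 323 and 307, and at -2.50, -2.28, -3.40, -3.86 and -2.08 in tumors 131, 307, 17, 323 and 85. Its probe lies on chromosome 8 from 122479438 to 122479497 (mm7, the build of the scanner files). Only tumors 105, 470 and 594 lay above the reference. Ckm, the muscle creatine kinase that buffers ATP, had log2 ratios of 5.30, 4.04 and 3.59 in tumors 105, 470 and 594, then 1.28 (323) and 0.999 (307) in the lung, and 0.66, -0.80, -0.22, 0.07 and 0.17 in mammary tumors 131, 307, 17, 323 and 85. Des, the intermediate filament desmin that smooth and heart muscle also contain, read 3.54, 1.13 and 0.95 in tumors 105, 470 and 594, then -2.08 (323) and -0.28 (307) in the lung, and -2.68, -0.07, -2.73, -4.11 and -1.81 in mammary tumors 131, 307, 17, 323 and 85. Des was therefore close to the reference in mammary tumor 307 and its lung counterpart and far below it in mammary tumor 323.

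Myot, the Z disc protein myotilin, read 7.505 in tumor 105, 7.01 in tumor 470 and 4.51 in tumor 594, and lay between 0.06 and 2.12 in the others. Its reference signal was well above background on 1 of the 10 arrays, so the size of these ratios is uncertain. Ttn and Neb, the giant titin and nebulin, stood at 5.67 and 5.50 in tumor 105 and at 3.88 and 4.37 in tumor 470. In tumor 594 they parted, since Neb was at 3.40 and Ttn at 1.25, below lung tumors 323 (1.28) and 307 (1.39). Ttn had 9 probes, and 1 of the 8 further ones was highest outside tumors 105 and 470.

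The calcium release genes Ryr1, the ryanodine receptor of the sarcoplasmic reticulum, and Cacna1s, its voltage sensor in the surface membrane, were both highest in tumor 105, at 4.97 and 3.28. Ryr1 was at 3.21 and 2.16 in tumors 470 and 594 and between -0.997 and 0.999 in the others, and Cacna1s at 0.23 and -0.88 and between -3.28 and -2.13. Jph1, which holds both membranes together, had one of the smallest SDs of the 40 genes (0.63) and did not share this order: 1.11, 0.37 and 1.44 in tumors 105, 470 and 594, then 1.14 (323) and 0.88 (307) in the lung, and -0.04, 0.43, 2.19, 0.79 and 1.21 in mammary tumors 131, 307, 17, 323 and 85. By log2 ratio, tumor 17, one of the lowest for muscle genes as a whole, was the highest for Jph1. In the red signal alone, scaled within each array, mammary tumor 323 (-1.47) was highest for Jph1, followed by tumor 105 (-3.32). Tumor 17 was at -5.30 in red and -6.36 in green. The Jph1 probe was dim, well above background in red on 7 arrays and in green on 4. The place of tumor 17 is therefore uncertain.

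Tcap, a cap of the titin filament, had similar log2 ratios in the 3 highest tumors, at 4.35, 4.14 and 3.99 in tumors 105, 470 and 594, against 2.40 or less in the others. Its red signal, scaled to the 75th percentile of each array, was 6.33, 4.42 and 2.15 in those 3 tumors, and the green signal followed at 1.96, 0.22 and -1.90. Trim63, a ubiquitin ligase of wasting muscle, was high in tumors 105 (3.97) and 470 (1.96), while tumor 594 (-0.23) lay under lung tumor 323 (0.74). Eno3, the muscle enolase of glycolysis, was above the reference in tumor 105 (2.64) and lung tumor 323 (0.21) alone. Pygm, the muscle glycogen phosphorylase, read 4.25, 1.47 and 1.03 in tumors 105, 470 and 594 and below 0 in the other 7, and was well above background in red on only 3 arrays.

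The fast fiber genes were the ones that tumor 594 shared most fully with tumors 105 and 470. The median over the 14 genes was 4.64 in tumor 105, 3.58 in tumor 470 and 2.97 in tumor 594. It was 1.07 and 0.39 in lung tumors 323 and 307, and ran from -0.997 to -0.60 in tumors 85, 323, 17, 307 and 131. Tumor 105 was highest for all 14.

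Myl1, a myosin light chain of fast fibers, had the largest SD of the 40 genes (3.96), with log2 ratios of 6.35, 3.82 and 2.74 in tumors 105, 470 and 594, then -0.36 (323) and -0.99 (307) in the lung, and -1.60, -4.61, -3.69, -4.72 and -4.94 in mammary tumors 131, 307, 17, 323 and 85. Its probe lies on chromosome 1 from 67164082 to 67164141 (mm7), and its second probe ordered the 3 highest tumors in the same way at 4.03, 2.35 and 1.82. Tnnt3, the fast troponin T that ties troponin to tropomyosin, came next with an SD of 3.56 and stood at 5.93 in tumor 105, 4.26 in tumor 470 and 3.27 in tumor 594, at 0.54 and -0.06 in lung tumors 323 and 307, and at -1.84, -3.16, -3.27, -4.01 and -3.15 in tumors 131, 307, 17, 323 and 85. Actn3, an alpha-actinin of the fast fiber Z disc, had an SD of 2.91 and read 4.26, 0.69 and -0.31 in tumors 105, 470 and 594, then -3.12 (323) and -3.32 (307) in the lung, and -3.40, -3.998, -4.29, -5.04 and -4.01 in mammary tumors 131, 307, 17, 323 and 85. In tumor 594 Actn3 was thus below the reference, unlike the other 13 fast genes there.

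The other fast troponins and another light chain put the same tumors first. Tnnc2, the calcium binding subunit, read 4.66, 3.72 and 3.37 in tumors 105, 470 and 594, then 1.57 (323) and 0.84 (307) in the lung, and -0.62, -1.99, -1.999, -1.83 and -1.98 in mammary tumors 131, 307, 17, 323 and 85. Tnni2, the inhibitory subunit, stood at 4.54 in tumor 105, 3.39 in tumor 470 and 2.79 in tumor 594, at 1.25 and 0.35 in lung tumors 323 and 307, and at -1.17, -0.51, -0.14, 0.81 and -1.23 in tumors 131, 307, 17, 323 and 85. Mylpf, the phosphorylatable light chain, was at 4.81 in tumor 105, 2.71 in tumor 470 and 2.24 in tumor 594, at -0.26 and -0.70 in lung tumors 323 and 307, and at -1.26, -1.63, -2.76, -2.21 and -1.82 in tumors 131, 307, 17, 323 and 85. For these subunits, tumors 105, 470 and 594 were separated from the other 7 with no overlap on the probe used, as they were for every fast gene but Casq1. For Myh4 the gap was narrow, 4.74 in tumor 470 against 4.71 in lung tumor 323. A further Myh2 probe put tumor 594 (1.29) below lung tumors 323 (1.91) and 307 (2.59). Tumors 105, 470 and 594 were named from these same values, and were the 3 highest for 1.39% of all probes.

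Pvalb, the calcium buffer parvalbumin that speeds relaxation, had a wide gap below the 3 highest tumors, with 5.47, 3.84 and 3.85 in tumors 105, 470 and 594, then 0.38 (323) and -0.27 (307) in the lung, and -0.57, -0.67, 0.10, -1.04 and -0.53 in mammary tumors 131, 307, 17, 323 and 85. Apart from the 3 highest tumors no value was above 0.38. Atp2a1, the fast calcium pump SERCA1, stood at 3.86 in tumor 105, 3.20 in tumor 470 and 2.36 in tumor 594, at 1.41 and 0.42 in lung tumors 323 and 307, and at 0.89, -0.69, -0.79, -0.84 and -0.88 in tumors 131, 307, 17, 323 and 85. That probe was well above background in red on 5 arrays. A second Atp2a1 probe, well above background in both channels on all 10, read 3.56, 1.06 and 0.31 in tumors 105, 470 and 594. It was at -0.04 in lung tumor 323, so the Atp2a1 levels of tumors 470 and 594 are uncertain. Casq1, the calcium store calsequestrin, was the only fast gene in which another tumor entered the first 3 by log2 ratio, since lung tumor 307 (1.71) lay above tumor 594 (1.29). Its probe was well above background in red on only 4 arrays. In the scaled red signal lung tumor 307 (-5.40) lay below tumor 594 (-4.19), with green at -7.17 and -7.11, so this order is uncertain.

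For the fast myosin heavy chains, tumor 131 and the lung tumors lay above some or all of the lowest tumors, as they did for Myl1, Tnnt3 and Tnnc2. Myh4, the heavy chain of the fastest fibers, had log2 ratios of 5.57, 4.74 and 4.92 in tumors 105, 470 and 594, then 4.71 (323) and 2.38 (307) in the lung, and 3.40, 0.06, 0.42, 0.16 and -0.21 in mammary tumors 131, 307, 17, 323 and 85. Lung tumor 323 was thus level with tumor 470 by log2 ratio, while mammary tumor 323, its origin, was near 0. In the scaled red signal lung tumor 323 (2.07) was below tumor 470 (5.35), with green at -3.03 and 0.56. Myh2, of the oxidative fast fibers, read 5.90 in tumor 105, 5.69 in tumor 470 and 5.85 in tumor 594, at 2.51 and 4.49 in lung tumors 323 and 307, and at 1.91, 2.99, -0.92, -0.48 and -0.66 in tumors 131, 307, 17, 323 and 85, and Myh1 stood at 4.42, 4.28 and 3.16 in tumors 105, 470 and 594, then 2.17 (323) and 2.41 (307) in the lung, and 1.39, 0.38, -0.73, -0.58 and -1.11 in mammary tumors 131, 307, 17, 323 and 85. Mammary tumor 307 was above the reference for Myh2 and near it for the other 2. The Myh2 value is uncertain there, since its scaled green signal was -6.89 with red at -2.64. That probe was well above background in green on only 3 arrays, and the further Myh2 probes read 1.73 and 0.04 in mammary tumor 307.

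The heavy chain genes lie in 1 cluster on chromosome 11 and are nearly identical, so that a probe can read more than 1 of them. Their probes span chr11:67279016-67279075 (Myh2), chr11:67306002-67306061 (Myh1) and chr11:67341898-67341957 (Myh4) in mm7. The probe of the perinatal chain Myh8, not one of the 40 genes, read 5.52, 4.62 and 4.74 in tumors 105, 470 and 594, 3.74 and 2.44 in lung tumors 323 and 307, and between -1.62 and 1.27 in the others. The other 2 probes of Myh1 gave 1.68 and 1.82 in tumor 105, 0.03 and -0.05 in tumor 470, and 0.08 and 0.68 in tumor 594, unlike the brightest Myh1 probe. The levels of the single heavy chains, Myh1 above all, are therefore uncertain.

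Lung tumor 323 was above each of the 4 lowest mammary tumors 323, 307, 17 and 85 in 28 of the 40 genes, lung tumor 307 in 25 and tumor 131 in 16, against 20.4%, 21.4% and 22.4% of all probes. These 4 tumors were named as the lowest after their values were seen, which in part fixes the counts. Outside the heavy chains, the highest log2 ratios among those genes in lung tumor 323 were 2.67 for Mybpc2, a myosin binding protein of fast fibers, 2.40 for Tcap and 2.12 for Myot. In lung tumor 307 they were 1.82 for Myot, 1.71 for Casq1 and 1.70 for Tcap. The Casq1 value is uncertain, as its probe was well above background in red on only 4 arrays.

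**Figure D2:**
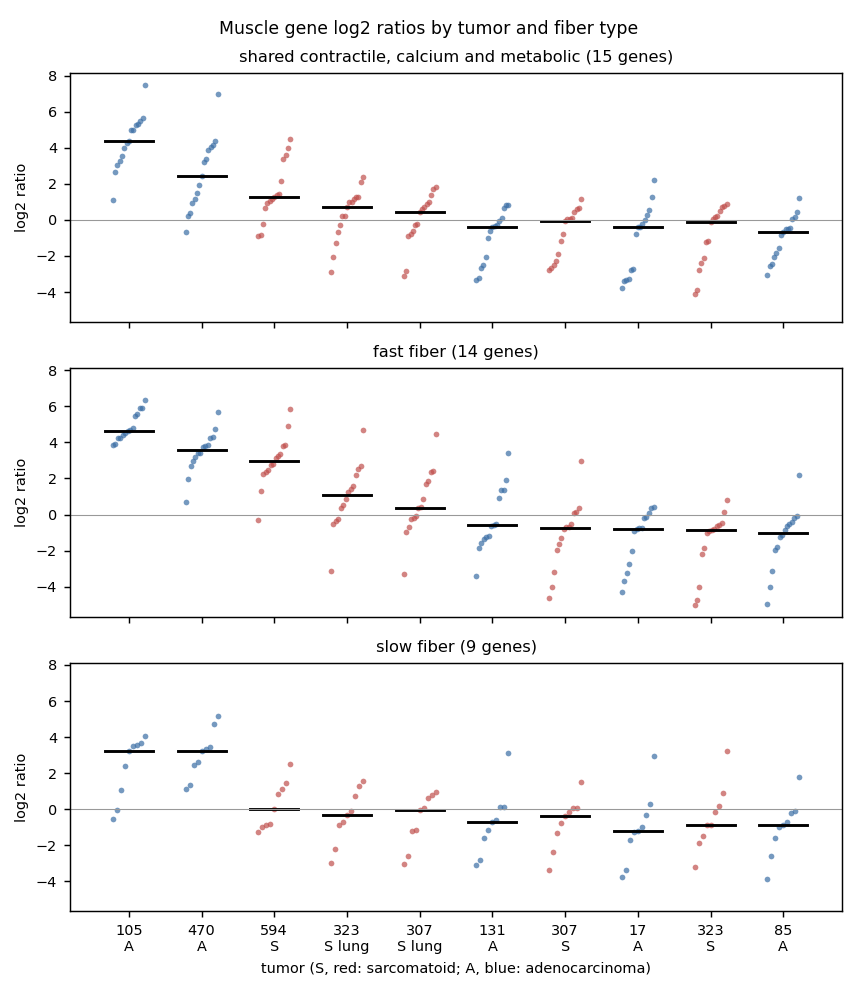
Log2 ratios of the shared, fast and slow fiber genes (panels; each point 1 gene, each bar the median) in the 10 tumors, ordered by the level of all 40 genes. Tumor 594 has a fast fiber median of 2.97 and a slow fiber median of 0.02, whereas tumors 105 and 470 are high for both.

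Slow fiber genes were high in only 2 tumors, 470 and 105, and here tumor 470 led. The median over the 9 genes was 3.21 in tumor 470 and 3.20 in tumor 105, and 0.02 in tumor 594. It was -0.34 and -0.05 in lung tumors 323 and 307 and ran from -1.21 to -0.39 in tumors 17, 85, 323, 131 and 307. Tumor 470 was highest for Myh7, Tnnt1, Myl2, Tnnc1, Tnni1 and Mb, and tumor 105 for Casq2, Mybpc1 and Myoz2.

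Myh7, the myosin heavy chain of slow fibers and of the heart ventricle, stood at 4.04 in tumor 105, 4.75 in tumor 470 and -0.96 in tumor 594, at -2.23 and -3.05 in lung tumors 323 and 307, and at -2.83, -2.37, -3.35, -1.89 and -2.60 in tumors 131, 307, 17, 323 and 85. Its SD over the tumors (2.95) was the third largest of the 40 genes. Its probe lies on chromosome 14 from 49837275 to 49837334 (mm7), and its second probe read 4.80 in tumor 470, 4.20 in tumor 105 and -1.46 in tumor 594. Myl2, the regulatory light chain of slow fibers and ventricle, read 3.65, 5.17 and 1.45 in tumors 105, 470 and 594, then 1.54 (323) and 0.60 (307) in the lung, and -1.15, -0.18, 0.30, 0.19 and -0.09 in mammary tumors 131, 307, 17, 323 and 85. Both genes put tumor 470 above tumor 105 and tumor 594 far below both.

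The slow troponins separated tumor 470 from all the other tumors. Tnnt1 had log2 ratios of -0.56, 1.32 and -1.26 in tumors 105, 470 and 594, then -2.996 (323) and -2.62 (307) in the lung, and -3.10, -3.39, -3.76, -3.23 and -3.86 in mammary tumors 131, 307, 17, 323 and 85, and only tumor 470 lay above the reference. Tnnc1, also the troponin C of the heart, stood at -0.02 in tumor 105, 2.61 in tumor 470 and -0.81 in tumor 594, at -0.88 and -1.19 in lung tumors 323 and 307, and at -1.60, -0.75, -0.97, -0.88 and -0.97 in tumors 131, 307, 17, 323 and 85. Tnni1 read 1.06, 2.45 and -0.86 in tumors 105, 470 and 594, then -0.69 (323) and -1.14 (307) in the lung, and -0.71, -1.32, -1.21, -1.46 and -1.62 in mammary tumors 131, 307, 17, 323 and 85. Tumor 470 exceeded tumor 105 by 1.88 for Tnnt1, 2.63 for Tnnc1 and 1.39 for Tnni1.

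Mb, the oxygen binding protein myoglobin, did not follow the muscle order, with log2 ratios of 3.20 in tumor 105, 3.34 in tumor 470 and 2.51 in tumor 594, at 0.72 and 0.79 in lung tumors 323 and 307, and at 3.12, 1.49, 2.94, 3.21 and 1.78 in tumors 131, 307, 17, 323 and 85. By log2 ratio, tumor 323 was level with tumor 105, but the scaled red signal was 0.06 in tumor 323 and 3.63 in tumor 105, and the green was -2.95 and 0.42. Casq2, a calsequestrin of slow fibers and the heart, had the third smallest SD (0.93) and read 2.41, 1.14 and 0.86 in tumors 105, 470 and 594, then -0.34 (323) and -0.05 (307) in the lung, and -0.62, 0.04, -0.30, 0.89 and -0.22 in mammary tumors 131, 307, 17, 323 and 85. Mybpc1 and Myoz2, slow fiber proteins of the thick filament and the Z disc, had like log2 ratios in tumors 105 (3.54 and 3.52) and 470 (3.21 and 3.46), and were at 1.13 and 0.02 in tumor 594. In the scaled red signal Mybpc1 was at 0.68 in tumor 105 and -1.46 in tumor 470, and Myoz2 at -0.37 and -0.21. The Mybpc1 probe was well above background in green on only 2 arrays.

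Set gene by gene, tumor 470 was below tumor 105 for all 14 fast genes and all 15 shared genes but above it for 6 of the 9 slow genes. The median difference, tumor 470 minus tumor 105, was -1.39 for the fast, -1.84 for the shared and 0.71 for the slow genes on the log2 ratio scale. In the red channel alone, each array scaled to its 75th percentile, the medians were -3.35, -2.65 and 1.72, with the same number of genes on each side in each list. Tumor 594 minus tumor 470 was -0.54 at the median of the fast genes and -3.31 at that of the slow genes, from -5.71 (Myh7) to -0.28 (Casq2). The fast minus slow list level was 2.95 in tumor 594, 1.44 in tumor 105 and 0.37 in tumor 470. In the red channel alone, with each gene shifted to its mean log2 ratio over the tumors, it was 2.88, 3.44 and 0.34, which turned the order of tumors 594 and 105. Without that shift the scaled red medians of the fast and slow genes were 0.67 and -3.82 in tumor 594. They were 5.86 and -0.37 in tumor 105 and 2.41 and 0.75 in tumor 470. By log2 ratio the fast minus slow level was 1.41 and 0.44 in lung tumors 323 and 307 and between -0.35 and 0.43 in the rest. These are differences between single arrays and carry no test.

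**Figure D3:**
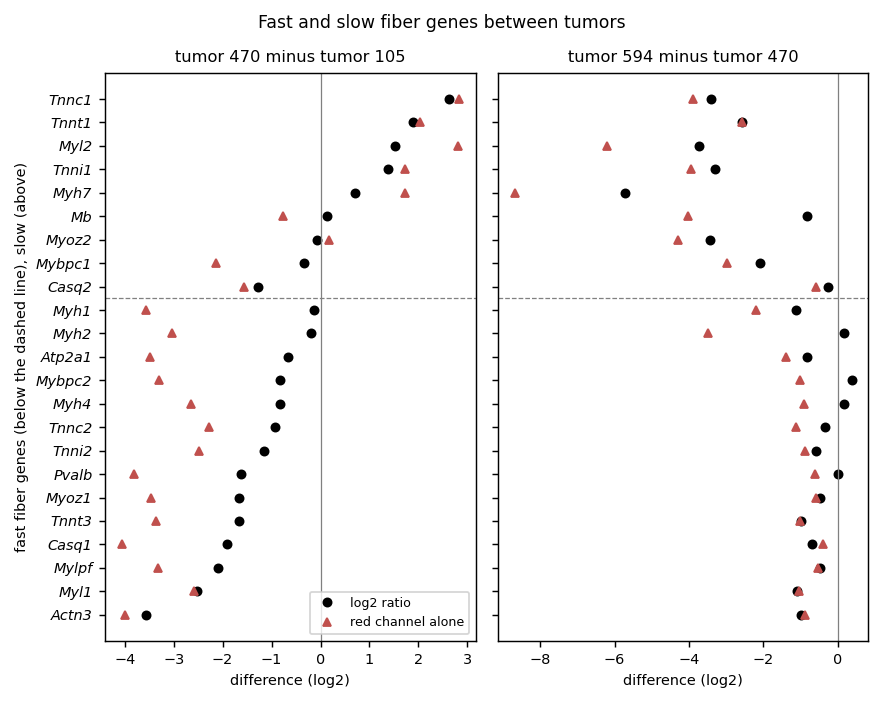
Difference between tumors (horizontal axis, log2) for each fast fiber gene (below the dashed line) and slow fiber gene (above), as log2 ratio (black circles) and in the red channel alone (red triangles). Left, tumor 470 minus tumor 105, with all 14 fast genes below 0 and 6 of 9 slow genes above it; right, tumor 594 minus tumor 470, with Myh7 at -5.71.

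The myogenic regulators did not share the order of the contractile genes, although tumor 105 had the highest log2 ratio for both. Myod1, a transcription factor that commits cells to the muscle lineage, had the smallest SD of the 40 genes (0.30), with log2 ratios of 0.65, -0.02 and 0.16 in tumors 105, 470 and 594, then 0.27 (323) and -0.25 (307) in the lung, and 0.61, -0.18, 0.06, 0.00 and 0.03 in mammary tumors 131, 307, 17, 323 and 85. For Myod1, tumor 105 was close to tumor 131 by log2 ratio, and in the scaled red signal mammary tumor 323 (-1.98) lay above tumor 105 (-2.87). The first place of tumor 105 for Myod1 is therefore uncertain. The scaled red and green signals of Myod1 each had an SD of 1.56 over the tumors. Its probe was dim, well above background in red on 8 arrays and in green on 5. The small SD of the ratio therefore does not show a steady Myod1 level. Myog, myogenin, which drives differentiation of myoblasts, stood at 1.31 in tumor 105, -1.75 in tumor 470 and -1.78 in tumor 594, at -2.66 and -2.13 in lung tumors 323 and 307, and at -2.31, -2.41, -2.69, -1.73 and -2.56 in tumors 131, 307, 17, 323 and 85. Tumor 105 alone lay above the reference for Myog, and tumors 470 and 594 were within the range of the rest.

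Promoter sequences are shown as examples of the lists, for 1 shared (Acta1), 1 fast (Myh4) and 2 slow genes (Myh7 and Tnnt1), picked with the values known. Each is the 250 bases before the start of the gene in RefSeq (GRCm38.p6), 5′ to 3′ on the strand of the gene, with E boxes (CANNTG, the sites of Myod1 and Myog), MEF2 sites and CArG boxes (the sites of serum response factor), searched on both strands, in capitals. The windows are chr8:123894776-123895025, minus strand (Acta1), chr11:67237562-67237811, plus strand (Myh4), chr14:54994627-54994876, minus strand (Myh7) and chr7:4515976-4516225, minus strand (Tnnt1).
Acta1: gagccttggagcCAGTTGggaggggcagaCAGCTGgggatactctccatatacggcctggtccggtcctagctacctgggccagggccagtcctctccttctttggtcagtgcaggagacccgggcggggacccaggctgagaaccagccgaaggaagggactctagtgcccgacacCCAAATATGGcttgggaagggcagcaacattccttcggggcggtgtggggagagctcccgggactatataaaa
Myh4: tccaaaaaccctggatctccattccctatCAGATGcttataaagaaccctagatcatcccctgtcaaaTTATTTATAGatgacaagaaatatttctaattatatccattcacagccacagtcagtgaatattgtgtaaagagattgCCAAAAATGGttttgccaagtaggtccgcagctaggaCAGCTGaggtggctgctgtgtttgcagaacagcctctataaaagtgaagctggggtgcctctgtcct
Myh7: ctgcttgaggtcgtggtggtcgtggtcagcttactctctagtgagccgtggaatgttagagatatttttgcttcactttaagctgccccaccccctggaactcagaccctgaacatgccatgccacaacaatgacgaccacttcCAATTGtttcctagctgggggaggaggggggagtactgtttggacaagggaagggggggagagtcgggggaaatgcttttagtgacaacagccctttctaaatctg
Tnnt1: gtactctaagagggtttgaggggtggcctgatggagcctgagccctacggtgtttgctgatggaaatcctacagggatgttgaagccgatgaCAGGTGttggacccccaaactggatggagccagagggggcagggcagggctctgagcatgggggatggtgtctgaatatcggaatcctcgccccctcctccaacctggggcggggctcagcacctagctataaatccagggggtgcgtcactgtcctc
The Acta1 window held 2 E boxes and 1 CArG box, the Myh4 window 2 E boxes, 1 MEF2 site and 1 CArG box, and the windows of the slow genes Myh7 and Tnnt1 1 E box each. Of the 40 genes, 31 had an entry. At least 1 E box was in 26 of these (83.9%, against 66% of all 27025 genes with an entry), a MEF2 site in 6 (19.4%, against 1.73%) and a CArG box in 3 (9.68%, against 1.4%). MEF2 sites were in 3 of 10 fast and 2 of 9 slow genes, CArG boxes in 1 and 0, and E boxes in 7 and 9. The windows shown are therefore no measure of a difference between the fast and slow lists. A match is a run of letters and not a measured site.

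For some bright muscle probes the green signal was high where the red was, and log2 ratios there differed less between tumors than the red signal alone. For Myl1 the array-scaled green signal ranged over 0.7 log2 units and the red over 12.5. For Myh4 the green ranged over 10.0 and the red over 15.4, and the red signal of tumor 105 exceeded that of tumor 470 by 2.65 while the ratio differed by 0.83. For Mb the red ranged over 6.6 and the green over 5.1. In tumor 105 the green signal exceeded the median of tumors 323, 307, 17 and 85 by over 1 log2 unit for 25 of the 40 genes. The red SD over tumors was above the green SD for 38 of the 40 genes, with means of 3.18 and 1.40. No probe of the 40 was saturated, and the cause of the green signal was not tested.

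**Figure D4:**
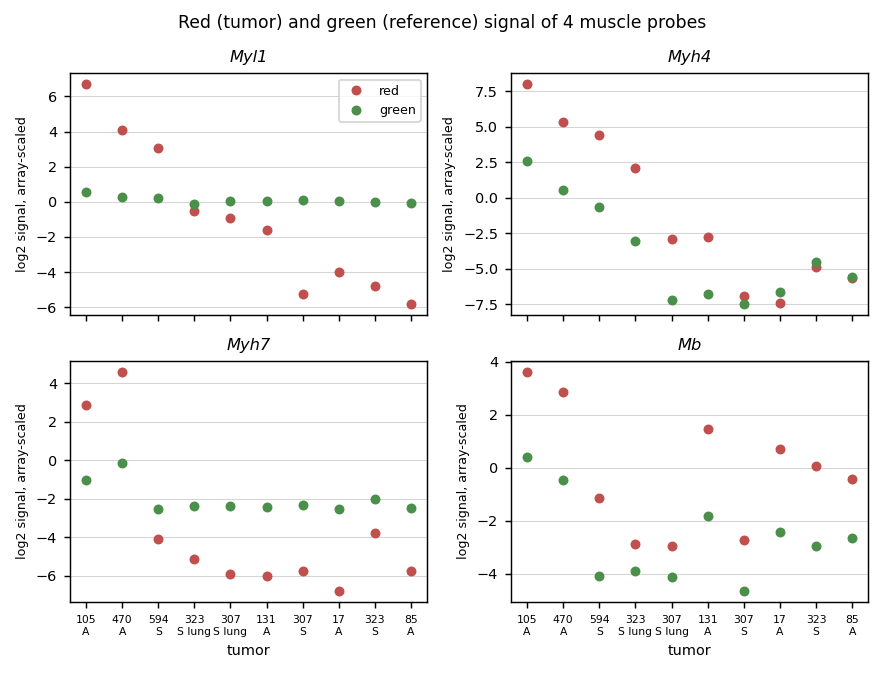
Red (tumor) and green (reference) log2 signal of the Myl1, Myh4, Myh7 and Mb probes, each scaled to the 75th percentile of its array, in the 10 tumors (ordered by the level of all 40 genes). The green signal of Myl1 is flat while that of Myh4 falls from 2.6 in tumor 105 to -7.5 in tumor 307.

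The first comparison asked whether muscle genes differed between sarcomatoid carcinomas and adenocarcinomas, and no gene of the list passed the test. Acta1 differed by -1.30 log2 units, sarcomatoid minus adenocarcinoma (-1.41 ± 1.86 against -0.11 ± 3.64, SD, n = 5 arrays each, SE 1.51, limma adjusted p = 0.845). Ckm differed by -0.96 (SE 1.12, limma adjusted p = 0.844), Myh7 by -2.10 (SE 1.52, limma adjusted p = 0.718) and Pygm by -1.72 (SE 0.97, limma adjusted p = 0.617). Myh4 differed by -0.34 (SE 1.30) and Tnnc2 by -0.37 (SE 1.46). None of the 40 genes passed an adjusted p of 0.05, where 0% of all probes did. The smallest was that of Mb, which differed by -1.13 (SE 0.50, unadjusted p = 0.0430, limma adjusted p = 0.525).

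The median difference over the 40 genes was -0.71, with 37 of 40 below 0, against a median of -0.0017 and 50.2% below 0 for all probes. At an unadjusted p of 0.05, 1 gene was lower and 0 were higher, against 4.25% and 4.98% of all probes. The groups overlapped for each of the 40 genes, and did not for 1.33% of all probes. Without tumor 105 the median was 0.0083 (21 genes above 0, 19 below), and without tumor 470 it was -0.22 (28 below 0). With scan batch as a term it was -0.78 (36 below 0), with 2 genes lower at an unadjusted p of 0.05, against 4.31% of all probes. Mammary and lung tumors of 1 number share an origin, so the sarcomatoid arrays are not independent. With tumor number as a random block the median was -0.71 (37 below 0). In that fit 1 gene was lower at an unadjusted p of 0.05, against 1755 of 40196 probes, and 0 passed the adjusted threshold. Tumors 307 and 105, and 594 and 470, shared slides, and with slide as a random block the median was -1.16, with 4 genes lower at an unadjusted p of 0.05, against 4.5% of all probes, and 0 past the adjusted threshold. Within batch 2 (tumors 307 and 594 against 105 and 470) the list level differed by -3.37, and within batch 3 (both lung tumors against 131, 17 and 85) by 0.98, while batch 1 held tumor 323 alone.

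The comparison at 1 site set the 3 mammary sarcomatoid tumors against the 5 adenocarcinomas. Acta1 differed by -1.54 (SE 1.82), Ckm by -1.04 (SE 1.35), Tnnc2 by -0.91 (SE 1.73), Myh4 by -1.07 (SE 1.501), Myh7 by -1.74 (SE 1.82), Mb by -0.48 (SE 0.45) and Pygm by -2.03 (SE 1.15), and 0 of the 40 genes passed, as did 0% of all probes. The median was -0.84 with 37 of 40 below 0, where 51% of all probes were, and the smallest limma adjusted p of a gene was 0.610. At an unadjusted p of 0.05, 0 genes were lower or higher, against 3.76% and 4.83% of probes, and no gene was free of overlap, against 5.83%. Without tumor 594 the median was -1.66, and without tumor 105 it was -0.16. With scan batch as a term it was -2.94, with 31 genes lower at an unadjusted p of 0.05, against 1.27% of all probes, and 0 past the adjusted threshold. As tumor 323 was alone in batch 1, that fit set tumors 307 and 594 against 105 and 470, the adenocarcinomas with high muscle genes. It therefore cannot tell histology from the levels of those single tumors.

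Lung and mammary sarcomatoid tumors were compared to ask whether growth in the lung went with another muscle level. The median over the 40 genes was 0.24 higher in the lung tumors, with 14 of 40 below 0 against 48.4% of all probes, and 0 of the 40 genes were called, where 0.0249% of probes (10) were. The group of 3 mammary tumors held both tumor 594, which was high, and tumors 323 and 307, which were low. Myh4 differed by 1.83 (SE 1.88), Tnnc2 by 1.36 (SE 2.17), Acta1 by 0.60 (SE 2.28), Ckm by 0.18 (SE 1.69), Pygm by 0.77 (SE 1.44) and Myh7 by -0.90 (SE 2.28). Mb was lower in both lung tumors (0.72 and 0.79) than in mammary tumors 323, 307 and 594 (3.21, 1.49 and 2.51), a difference of -1.65 log2 units (SE 0.56), with an unadjusted p of 0.0138 and a limma adjusted p of 0.364. It was the only gene with an unadjusted p under 0.05, where 5.1% of all probes were lower and 5.59% higher. Lung and mammary tumors did not overlap for 5 of the 40 genes (Ttn, Ldb3, Cacna1s, Casq2 and Mb), 12.5% against 34.3% of all probes.

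Within the pairs of 1 origin, the lung tumors were the higher. The list level was 0.46 in lung tumor 323 against -0.86 in its mammary origin, and 0.01 in lung tumor 307 against -0.68. With tumor number as a block over these pairs the median difference was 1.11, with 19 genes higher and 1 lower at an unadjusted p of 0.05, against 6.59% and 6.69% of all probes, and 0 past the adjusted threshold. With scan batch as a term the median was 4.48, with 30 genes higher at an unadjusted p of 0.05, against 3.36% of all probes, and 0 past the adjusted threshold. Both lung tumors were scanned in batch 3 and no mammary sarcomatoid tumor was, so site and batch cannot be told apart within this group. In the fit with scan batch, the step from batch 2 to batch 3 came from the adenocarcinomas alone, 105 and 470 against 131, 17 and 85. The median of 4.48 and the 30 genes therefore carry the high muscle levels of tumors 105 and 470 and do not measure site.

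Further muscle genes off the list were high in the same tumors. Among 31 other skeletal muscle genes the median was 3.56 in tumor 105, 1.98 in tumor 470 and 0.77 in tumor 594, and between -0.69 and 0.31 in the rest. For 17 of the 31 the 3 highest tumors were 105, 470 and 594. The 3 with the largest SD were Smpx, a small protein of striated muscle, at 7.02, 6.90 and 6.32 in tumors 105, 470 and 594, Trdn, triadin of the calcium release unit, at 5.10, 4.96 and 3.40, and Myl3, a slow and ventricular light chain, at 5.65, 4.22 and 2.72. No gene of this list passed the adjusted threshold in any of the 3 comparisons, and the list's median difference between sarcomatoid and adenocarcinoma was -0.90.

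The list of embryonic muscle and regulator genes had lower medians than the adult genes in tumors 105, 470 and 594. The median over 15 genes was 0.16, -0.30 and 0.18 in tumors 105, 470 and 594 and between -1.11 and -0.21 in the rest, and 4 of 15 had those as the 3 highest tumors, against 1.39% of all probes. Among them Myf6, a myogenic regulator also made in adult fibers, was at 4.63, 1.88 and 1.21 in these tumors and at most 0.89 in the rest. Myh8, Chrna1, a subunit of the acetylcholine receptor, and Cdh15, the myoblast cadherin, had the largest SDs. Chrna1 was at 1.24, -0.30 and 0.04 in tumors 105, 470 and 594, and at most -0.63 in the rest. Cdh15 was highest in tumor 307 (3.14) and tumor 323 (2.58).

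Heart and smooth muscle lists had medians near the reference in tumors 105, 470 and 594 and lower medians in the rest. The heart list, of 11 genes, had medians of 0.03, -0.32 and 0.06 in tumors 105, 470 and 594 and between -1.48 and -0.44 in the rest. Its Myh6, the atrial myosin, was at 2.65 in tumor 105 and 3.86 in tumor 470 and well above background on those 2 arrays only, Hspb7 was at 2.97 and 1.99, and Tnnt2 was highest in tumor 85 (3.23). The smooth muscle and myoepithelium list had medians of 0.44, 0.54 and 0.17 in tumors 105, 470 and 594 and between -1.90 and -0.11 in the rest, with the largest SDs in Cnn1, Synpo2 and Tagln.

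The fat list had its highest medians in the same tumors. The median of 10 adipocyte genes was 5.53 in tumor 105, 3.01 in tumor 594 and 2.57 in tumor 470, then 1.34 in tumor 307, 1.09 in lung tumor 323 and between -0.45 and 0.85 in the others. Adipoq, the fat hormone adiponectin, was at 5.52, 4.55 and 5.34 in tumors 105, 470 and 594, Cfd at 7.23, 6.08 and 7.10, and Car3 at 5.54, 4.37 and 3.83. These 3 had the largest SDs of the list, in which 4 of 10 genes had those as the 3 highest tumors. In tumors 470 and 594 Lpl was at -0.15 and -0.21, Pnpla2 at -0.62 and -0.77 and Lep at 0.02 and 0.15. Of the 4 brown fat genes, Ucp1, the uncoupling protein, was at 5.33 in tumor 105 and at most 2.08 elsewhere. Cidea was at 5.95 in tumor 105 and 4.46 in tumor 85. The part of fat tissue in the muscle values was not tested.

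Epithelial genes did not follow muscle. The mammary epithelium list (8 genes) had medians of 3.55 in tumor 105, -2.49 in tumor 470 and 0.33 in tumor 594, so that the tumors with high muscle genes spanned nearly the whole range of epithelial levels, from -4.12 in lung tumor 307 to 3.94 in tumor 85. Epcam was at 3.29, -3.03 and 0.07 in these tumors. The lung epithelium list (10 genes) lay between -0.37 and 0.54 in all tumors, with 0.02 and 0.41 in the lung tumors, and Sftpc, the surfactant protein of alveolar type II cells, was at -0.01 in lung tumor 323 and 2.48 in lung tumor 307, and at 2.09 and 1.98 in adenocarcinomas 85 and 105.

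**Figure D5:**
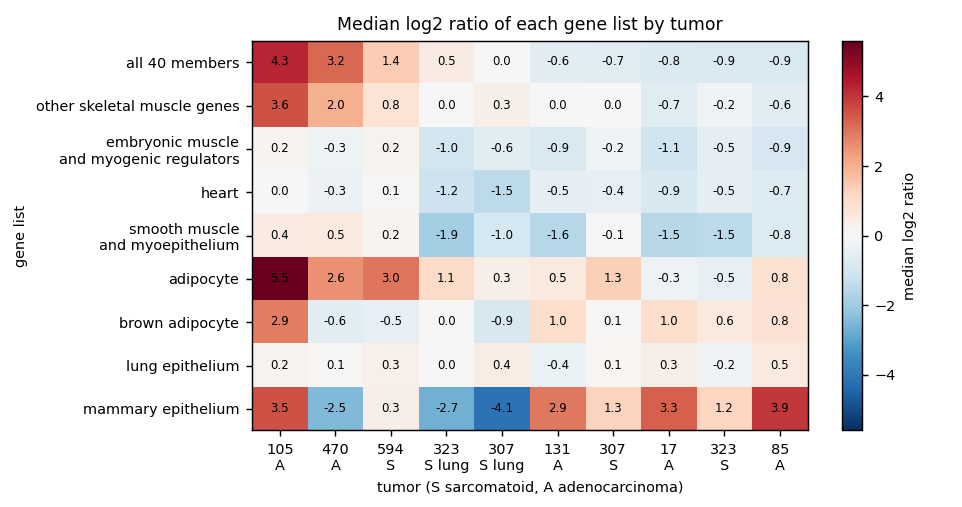
Median log2 ratio (colour and number) of each gene list (rows) in the 10 tumors (columns, ordered by the level of the 40 muscle genes; S sarcomatoid, A adenocarcinoma). The adipocyte list is high in the same 3 tumors as the muscle genes, at 5.53, 2.57 and 3.01 in tumors 105, 470 and 594.

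Of the 40 genes, 16 had more than 1 probe, which gave 29 further probes. Of these, 25 were highest in tumor 105 or 470, but only 9 had tumors 105, 470 and 594 as the 3 highest, against 26 of the 40 probes used. The exceptions were 1 further probe each of Ryr1, Ttn, Cacna1s and Myoz2, the last 2 well above background on 1 and 2 arrays.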

How the data were processed

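RNA of 10 mouse tumors was measured on Agilent 2-colour arrays, 1 per tumor. The authors deposited scanner files with spot intensity in both channels and a log10 ratio per spot, and a normalized table in log2 units for which their methods name limma without steps. Each column of that table followed its own array's red over green ratio (r from 0.868 to 0.926), so red was read as tumor, although the labels give Cy3 (green) as the tumor's dye. With red as tumor, all 8 mammary epithelium genes were lower in the sarcomatoid carcinomas (median -2.82). Between the mammary groups 7 of the 8 were lower (median -1.16), and adenocarcinoma 470 was itself low for this list at -2.49. Over the 40 genes the mean SD across tumors was 3.18 in red and 1.40 in green, the channel then holding the common reference. Red is thus the likely tumor channel. Under the labelled dye every sign would turn.

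Spots of a probe were averaged, control spots were dropped and 40196 probes entered every fit (978 further array probes were not in the table). Probes were named by the gene column of the scanner files, or a synonym in RefSeq's gene table for 1 of the 40 genes, and coordinates are mm7. Groups were compared with limma 3.58.1 in R 4.3.3, two-sided, with Benjamini-Hochberg adjustment over all probes at 0.05. Sarcomatoid was set against adenocarcinoma with group as the only term. The other comparisons came from a fit with 3 groups, in which the third group adds to the estimate of the spread and control tumors are shared. The fit was tested on simulated data. Per the study's methods, each lung tumor was grown from a cell line of a mammary primary of its own group, so the sarcomatoid arrays are not independent of each other. Beyond this, nothing says whether tumors of a group came from separate mice. The p-values therefore measure the spread between these samples, and the number of arrays limits precision.

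Alternatives were normexp correction (offset 50) with loess of the median intensities, the scanner's own log10 ratio turned to log2, median centring, a filter on dim probes (well above background in red on at least 3 arrays), scan batch as a term, slide or tumor number as a block, the mean over all probes of a gene, 1 array left out at a time, and the red channel alone. The last was added for the group comparisons after seeing the data. For list levels it used the scaled red signal with each gene shifted to its mean log2 ratio over the tumors. The members and lists were chosen with earlier results of these data known. Values for every tumor were given for 20 genes picked by role and for the 3 genes with the largest and the 3 with the smallest SD, and the 3 genes with the largest SD stood for each other list.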

Additional observations from a re-analysis of the deposited data

Results flagged for a closer look

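Within each group of 5 tumors, every gene and list level was searched for a single tumor far from the other 4 (gap over the group's range above 0.710). Of 90 combinations 6 had one, where chance gives about 4.5. Ttn was at 0.50 in sarcomatoid tumor 323, against 1.18 to 1.39 in the other sarcomatoid tumors. Neb was at 3.40 and Pvalb at 3.85 in sarcomatoid tumor 594, against 0.11 to 0.97 and -1.04 to 0.38 in the other 4. Mb was at 1.78 in adenocarcinoma 85, against 2.94 to 3.34. Myog was at 1.31 in adenocarcinoma 105, against -2.69 to -1.75, and the level of the pair Myod1 and Myog there was 0.98, against -1.32 to -0.85.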

How the results depend on the processing

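The order 105, 470, 594, lung 323 and lung 307 at the top of the muscle list level was the same under all 6 alternatives, while the order of the lower 5 tumors was not. With only the 9 members well above background in red on all arrays, the level was -2.14 in tumor 323 and -1.99 in tumor 307; with the red channel alone it was -1.71 in tumor 307, and with the scanner's log ratio 2.39 in tumor 594. The fast minus slow level was, with the red channel alone, 3.44 in tumor 105, -1.43 in tumor 323, -1.05 in tumor 17 and -1.04 in tumor 85. It was 2.35 in tumor 105 without the slow genes the heart uses, 1.02 in tumor 470 with normexp and loess, and -0.39 and -0.79 in tumors 17 and 85 with the scanner's log ratio. No member was called in any of the 59 fits.

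Leaving out 1 array gave 0 to 618 called probes between sarcomatoid carcinoma and adenocarcinoma, 0 to 210 between the mammary groups and 0 to 84 between lung and mammary sarcomatoid tumors, the highest each time without tumor 470. The lung comparison had 10 probes called, and 2 with normexp and loess or the red channel alone, 5 with the scanner's log ratio, 6 with median centring, and 0 with scan batch as a term or with the replicate block (tumor number, which pairs lung tumors with their mammary origin). With scan batch as a term the median of the members was 4.48 in that comparison and -2.94 between the mammary groups. Both values rest on adenocarcinomas 105 and 470, which were high for muscle genes and lay in batch 2. The members' median ranged from -1.20 to 0.0083, from -0.24 to 1.11 and from -1.66 to -0.16 when 1 array was left out of the sarcomatoid, lung and mammary comparisons. The cause of the other shifts was not tested.

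Of 392 recomputed differences of 7 genes, 20 turned in sign and none passed the threshold. Myh4 between sarcomatoid and adenocarcinoma was 0.0949 with the scanner's log ratio, 0.0677 with scan batch as a term and -1.09 to 0.36 without 1 array, and Tnnc2 -1.11 to 0.61. Between lung and mammary tumors Ckm was -0.33 with normexp and loess, -0.79 with the red channel alone and -0.69 to 1.4999 without 1 array, Myh7 6.34 with scan batch as a term, Pygm -0.0335 with normexp and loess and -0.0083 to 1.88 without 1 array, and Acta1 -0.51 to 2.02. Between the mammary groups Tnnc2 was -2.67 to 0.067 without 1 array. Dim probes limit the lower tumors, where 11 to 30 of the 40 genes were well above background in red.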
